A study of Drosophila melanogaster with 20 samples.

Results

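The transcripts described here were lower in the heads of flies with neuronal RNA interference against ATM and differed by less in the heads of flies with glial RNA interference or with a mutant ATM allele. They were chosen from the measured values. A member had a mean level in Elav-ATMi flies at least 0.5 below that in Elav-GAL4 controls on the log2 scale, with all 4 Elav-ATMi arrays below all 4 control arrays. In addition, the differences of Repo-ATMi minus Repo-GAL4 and of ATM8 minus ATM8/+ each lay between -0.5 and 0.5. This rule took 69 of the 15473 transcripts on the array. The ElavC155 pair, a second neuronal driver, had no part in the rule and is the pair on which the members were tested.

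ATM is a large protein kinase that responds to broken DNA and, by phosphorylating many other proteins, halts the cell cycle and starts repair or cell death. Its loss in humans causes ataxia telangiectasia, a disease in which neurons of the cerebellum die although neurons are cells that no longer divide. In the fly the gene is called tefu. The elav gene encodes an RNA-binding protein of neurons and the repo gene a homeodomain transcription factor of glia. GAL4, a yeast transcription factor placed under the control of such a gene, turns on any transgene behind a UAS sequence in the cells concerned.

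Total RNA of adult Drosophila melanogaster heads was measured on 20 single-colour arrays, 1 per sample, with 8 genotypes in 4 pairs. Elav-ATMi flies carried Elav-GAL4 on chromosome 2 and UAS-RNAiATM on chromosome 3, 1 copy of each, and Elav-GAL4 controls carried the driver alone (4 samples each). ElavC155-ATMi flies carried ElavC155-GAL4 on the X chromosome with the same UAS-RNAiATM copy, and ElavC155-GAL4 controls the driver alone (2 each). Repo-ATMi flies carried Repo-GAL4 over UAS-RNAiATM on chromosome 3, and Repo-GAL4 controls the driver over a wild-type chromosome (2 each). The genetic background of these 6 genotypes was w1118, and they were kept at 25°C and were 4 to 6 days old. ATM8 flies were homozygous for the temperature-sensitive ATM8 allele and ATM8/+ flies heterozygous (2 each), in a pp e1 background. They were kept at 18°C until collection at 0 to 3 days of age and then at 25°C for 3 days. Controls carried no RNA interference transgene, so the transgene and its effect on ATM go together in each driver pair, and no source used here gives the sexes or the number of heads per sample.

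The deposited values are log2 levels from RMA, a method that corrects background, normalizes arrays and merges the probes of a transcript. The 12 Elav and ElavC155 arrays had medians between 10.84 and 10.93 and the 8 Repo and ATM8 arrays medians between 10.45 and 10.63. Each pair lies within 1 of these sets, and levels set across the sets below are given with that reservation. Rows are FlyBase transcript identifiers without gene names. The gene table used here tied 0 of the 69 members to a gene, so no member can be given a function, and 0 of 26 marker genes of neurons, glia, photoreceptors, fat body and muscle, tefu included, could be matched to a row. The lowering of ATM and the makeup of the heads by cell type were therefore not checked, and in whole heads fewer cells of a type and less RNA per cell cannot be told apart.

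In the Elav pair, which chose them, the members differed mostly by little more than the rule asked. The difference of Elav-ATMi minus Elav-GAL4 ran from -1.87 to -0.50, with a median of -0.60, against a median of -0.01 over all transcripts. Only 6 members lay at or below -1, which is a level no more than 1/2 of the control level, while 34 lay above -0.6. As a description of the rule alone, 0.957% of all transcripts met its demands on the Elav pair. The 148 that did so became 69 when 79 were set aside by the other bounds. Of these 79, 55 were lower by at least 0.5 in Repo-ATMi flies, 15 were lower by as much in ATM8 homozygotes, 2 were higher by as much in Repo-ATMi flies and 18 in ATM8 homozygotes, with 11 outside the bounds of both pairs.

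The member nearest to the bound had an Elav difference of -0.502, and the nearest transcript left out by that bound alone had -0.495. The narrowest gap between the highest Elav-ATMi array and the lowest Elav-GAL4 array was 0.02 among members, and the median gap was 0.17. Of the transcripts left out by overlap alone, the nearest overlapped by 0.01. For the glial difference the members reached from -0.493 to 0.423, and the nearest transcripts outside had -0.502 and 0.985. For the ATM8 difference the members reached from -0.498 to 0.464, and the nearest outside had -0.624 and 0.563.

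All 8 Elav arrays took part in the choice of members, so values in subsets of them are a description. The median difference was -0.63 in replicates 1 and 2 and -0.69 in replicates 3 and 4. The difference was at or below -0.5 for 50 members in the first of these subsets and for 53 in the second. The smallest differences were -0.17 and -0.25. The median level over the members was 7.57, 7.84, 7.65 and 7.71 on the 4 Elav-ATMi arrays, against 8.40, 8.45, 8.44 and 8.41 on the 4 Elav-GAL4 arrays.

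**Figure D1:**
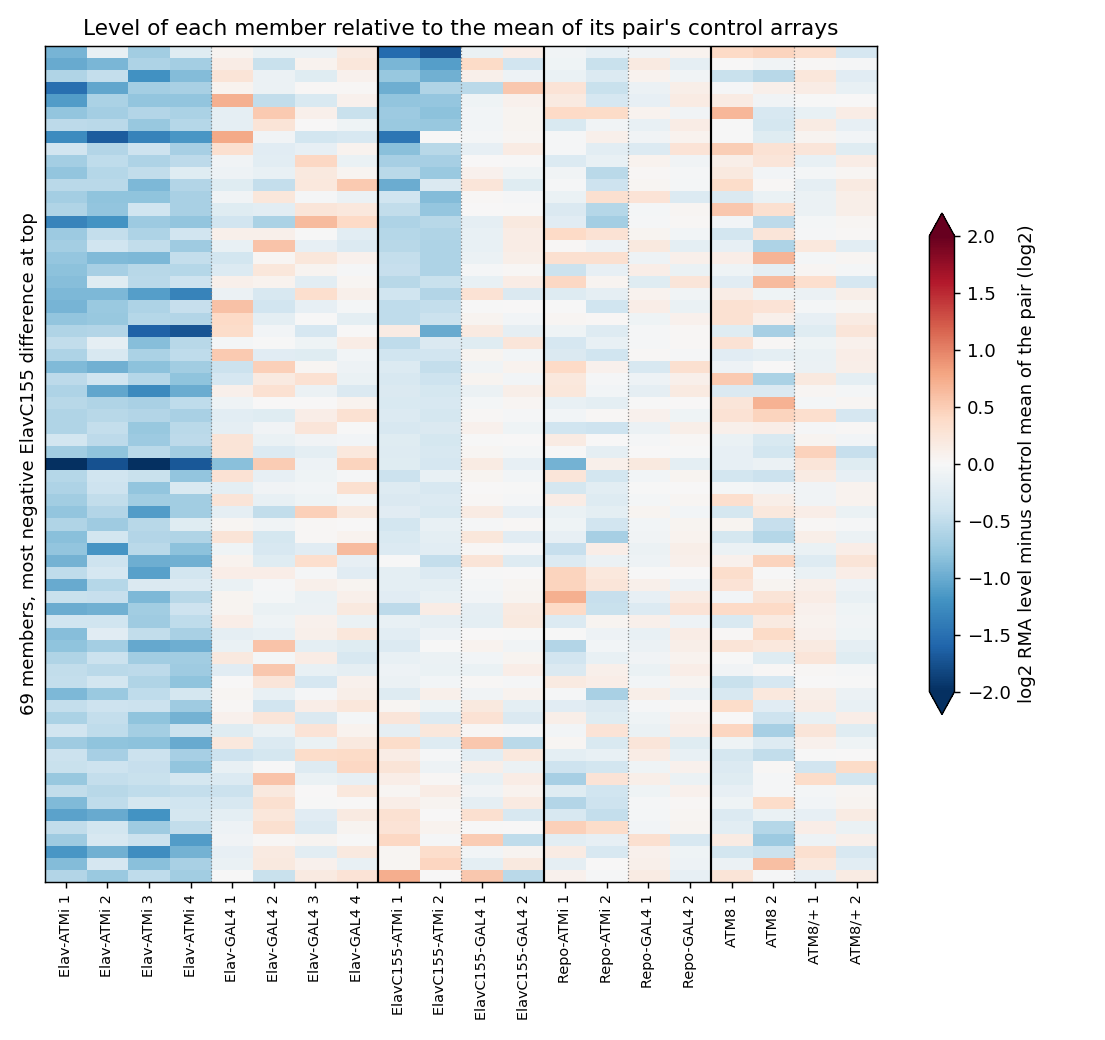
Level of each of the 69 members (rows) on each of the 20 arrays (columns), as log2 RMA level minus the mean of the control arrays of the same pair; blue is lower and red higher, and solid lines separate the pairs. Rows are sorted by the ElavC155 difference, most negative at the top; the Elav-ATMi arrays are blue throughout by the choice of members, and 45 rows have both ElavC155-ATMi arrays below both controls.

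FBtr0088779 had the most negative Elav difference. Its levels were 5.14, 5.39, 5.08 and 5.43 on the Elav-ATMi arrays, against 6.29, 7.63, 7.02 and 7.57 on the Elav-GAL4 arrays. The Elav-ATMi arrays all lay low and close together, a difference of -1.87, and the controls spread over more than 1 log2 unit. With ElavC155 it was at 5.37 and 5.27 in ElavC155-ATMi flies, against 5.77 and 5.45 in ElavC155-GAL4 controls. The transcript was thus dim in both ElavC155 genotypes, near the values of Elav-ATMi flies, and its ElavC155 difference of -0.29 ± 0.30 (SE) did not pass the test (limma adjusted p = 0.958). Leaving out 1 ElavC155-GAL4 array gave -0.13 or -0.45. In the glial pair it was at 6.15 and 7.20 in Repo-ATMi flies, against 7.29 and 6.91 in Repo-GAL4 controls, which overlap.

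FBtr0076709 came second in the Elav pair. It had 7.21, 6.80, 7.12 and 7.30 on the Elav-ATMi arrays, against 9.21, 8.39, 8.10 and 8.14 on the Elav-GAL4 arrays. The difference was -1.35, and the groups did not overlap. In ElavC155-ATMi flies it was at 5.63 and 7.07, against 7.02 and 7.11 in ElavC155-GAL4 controls, so that only 1 of the ElavC155-ATMi arrays was low. The ElavC155 difference was -0.72 ± 0.34 (SE, limma adjusted p = 0.711). Leaving out ElavC155-ATMi replicate 1 turned it to 0.006, and leaving out replicate 2 gave -1.44 (adjusted p = 0.0125), so it rests on a single array. Its levels in the glial and ATM8 pairs, between 5.72 and 6.01 on every array, were lower than in either Elav genotype and near the low end of the scale, where the lowest value on any array was 4.31.

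The third was FBtr0085677, with 8.71, 8.72, 7.68 and 7.58 on the Elav-ATMi arrays, against 9.68, 9.26, 8.97 and 9.32 on the Elav-GAL4 arrays. Replicates 3 and 4 of Elav-ATMi were lower by about 1 log2 unit than replicates 1 and 2, and all 4 lay below the controls. Its ElavC155-ATMi arrays, at 9.02 and 7.84, overlapped the ElavC155-GAL4 arrays at 9.02 and 8.67. The ElavC155 difference was -0.42 ± 0.33 (SE, limma adjusted p = 0.933), and it was 0.17 without ElavC155-ATMi replicate 2.

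The members were dimmer than most transcripts on the array. The median over members of the mean level was 7.71 in Elav-ATMi flies and 8.46 in Elav-GAL4 controls, against 10.90 and 10.89 over all transcripts in the same genotypes. By mean level over the 20 arrays, 33 members lay in the dimmest 25% of transcripts, 28 in the next 25%, 6 in the third and 2 in the brightest. A mean level under 6 was measured in Elav-ATMi flies for 15 members and 13.1% of all transcripts, and in Elav-GAL4 controls for 3 members and 13.9% of all transcripts. RMA levels carry no detection call, so no floor can be set under these values. The replicates of the members spread somewhat more than those of all transcripts: the residual SD of the fit used below had a median of 0.22 over members and 0.17 over all transcripts.

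**Figure D2:**
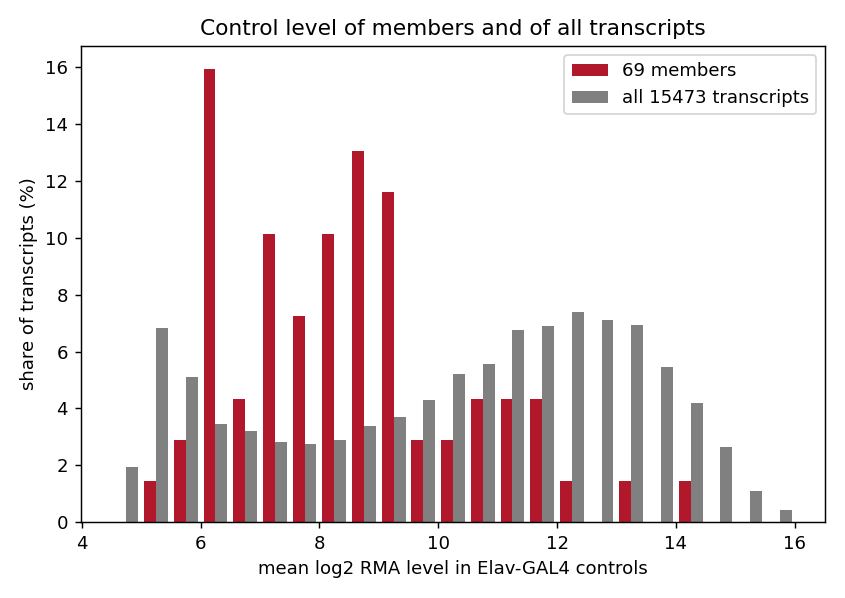
Share of transcripts (%) by mean log2 RMA level in the 4 Elav-GAL4 controls, in bins of 0.5, for the 69 members (red) and all 15473 transcripts (grey). Most members lie between 6 and 10, with a median of 8.46, while the median over all transcripts is 10.89.

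With the second neuronal driver the members were lower as a group than all transcripts. The Elav difference chose the members, so the sizes of the Elav and ElavC155 differences are not compared here. The median difference of ElavC155-ATMi minus ElavC155-GAL4 was -0.29 over the 69 members and 0.01 over all transcripts, with the members running from -1.64 to 0.37. The difference was below 0 for 56 members (81.2%), as it was for 48.7% of all transcripts. It was at or below -0.5 for 20 members (29.0%), against 2.06% of all transcripts. Both ElavC155-ATMi arrays lay below both ElavC155-GAL4 arrays for 45 members (65.2%), against 20.7% of all transcripts, and both lay above for 1 member, against 19.3%. The direction was the same on either ElavC155-ATMi array taken alone: against the control mean, 54 members were lower on replicate 1 (median -0.28) and 57 on replicate 2 (median -0.29).

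**Figure D3:**
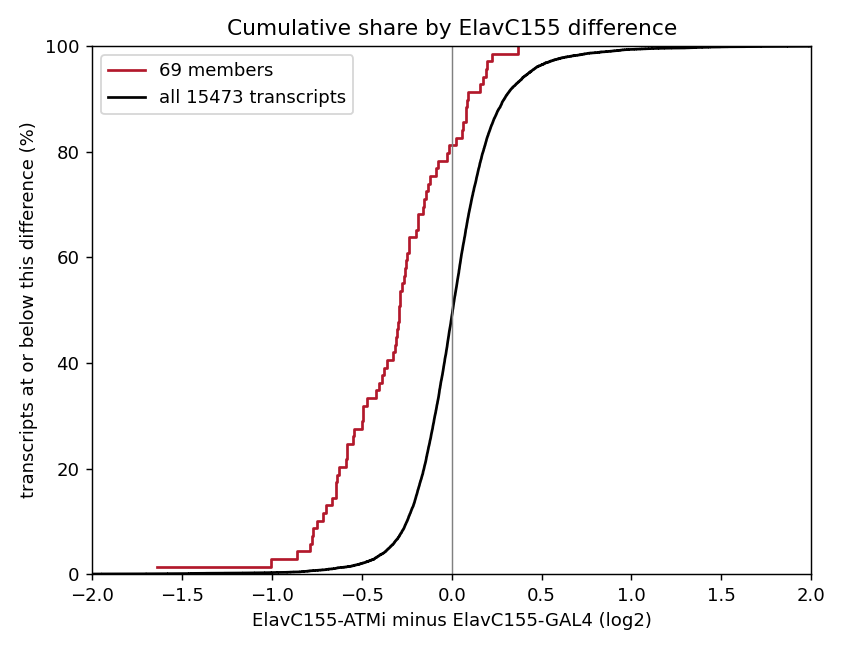
Share of transcripts (%) at or below each value of the difference ElavC155-ATMi minus ElavC155-GAL4 (log2), for the 69 members (red) and all 15473 transcripts (black). The line of the members lies left of that of all transcripts, with medians of -0.29 and 0.01.

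Member by member, few of these differences could be told from replicate error with 2 arrays a genotype. Each transcript was tested with limma on the 12 arrays other than the Elav pair, and p-values were adjusted over all 15473 transcripts. The replicate error was thus pooled over the ElavC155, Repo and ATM8 pairs. The median SD between replicates of members was 0.08 in ElavC155-ATMi and 0.13 in ElavC155-GAL4 flies. It was 0.15 in Repo-ATMi, 0.13 in Repo-GAL4, 0.16 in ATM8 and 0.18 in ATM8/+ flies. At an adjusted p under 0.05, 1 member fell in ElavC155-ATMi flies, against 0.22% of all transcripts, and 0 rose, against 0.33%. At an unadjusted p under 0.05, 26 members (37.7%) were lower, against 3.43% of all transcripts, and 0 were higher, against 4.18%. The 25 members that passed only unadjusted had differences from -1.003 to -0.287, standard errors from 0.12 to 0.32 and limma adjusted p-values from 0.065 to 0.642. No source used here says whether the arrays of both neuronal pairs were normalized together.

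Dim and brighter members were also counted apart. Of the 33 members in the dimmest 25% of transcripts, 21 (63.6%) had both ElavC155-ATMi arrays below both controls, against 22.4% of all transcripts that dim. Of the 36 others it was 24 (66.7%), against 20.2% of all others. The median ElavC155 difference was -0.29 in either subset. Between the Elav and the ElavC155 differences, Pearson's r was 0.10 and Spearman's rho 0.18 over the 69 members, which share their arrays and were cut off at -0.5 on the Elav axis.

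**Figure D4:**
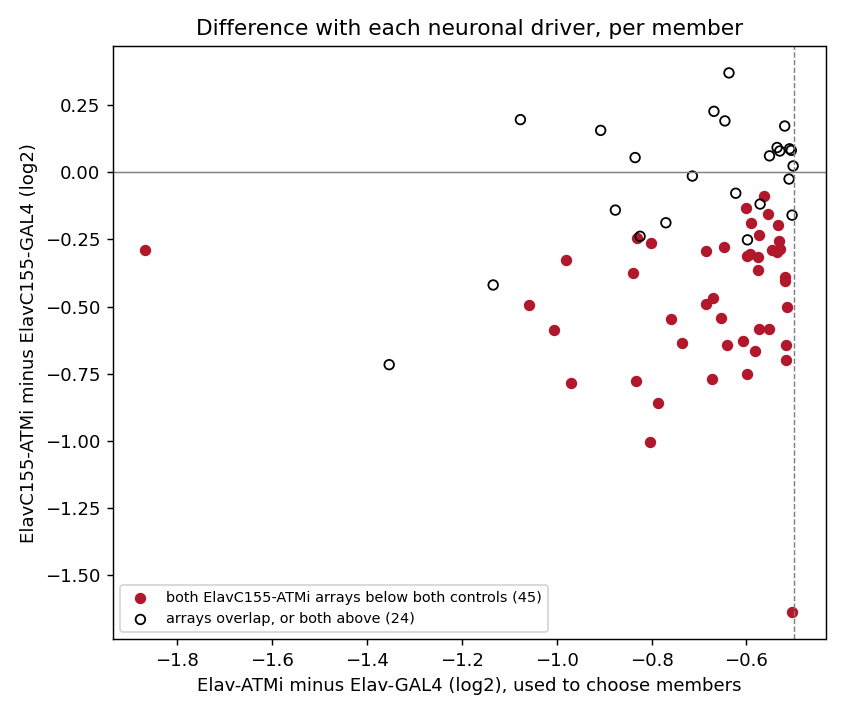
Difference Elav-ATMi minus Elav-GAL4 (log2, horizontal axis, used to choose the members, bound dashed) against ElavC155-ATMi minus ElavC155-GAL4 (log2, vertical axis) for the 69 members. Filled points are the 45 members with both ElavC155-ATMi arrays below both controls; 56 points lie below 0 on the vertical axis, and the lowest, at -1.64, lies next to the bound on the horizontal axis.

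The member that passed was FBtr0081872. It stood at 6.02 and 5.81 in ElavC155-ATMi flies, against 7.42 and 7.68 in ElavC155-GAL4 controls. The genotypes lie more than 1 log2 unit apart, and the transcript fell, with a log2 difference of -1.64 ± 0.20 (SE, limma adjusted p = 0.00508). In the Elav pair it had barely entered the list, with 5.40, 6.18, 5.64 and 6.09 in Elav-ATMi flies, against 6.39, 6.21, 6.22 and 6.51 in Elav-GAL4 controls. The ATMi levels of the 2 drivers were close, with means of 5.91 for ElavC155-ATMi and 5.83 for Elav-ATMi, whereas the control means were 7.55 for ElavC155-GAL4 and 6.33 for Elav-GAL4. It no longer passed when only the 4 ElavC155 arrays were fitted (adjusted p = 0.0903), or when replicate 2 of ElavC155-ATMi (0.0551) or of ElavC155-GAL4 (0.0501) was left out. The difference lay between -1.77 and -1.45 under the 10 alternatives that kept it among the transcripts tested.

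FBtr0081309 had the next most negative ElavC155 difference. Its levels were 7.52 and 7.34 in ElavC155-ATMi flies, against 8.82 and 8.04 in ElavC155-GAL4 controls, and 8.16, 8.27, 8.56 and 8.49 in Elav-ATMi flies, against 9.32, 8.73, 9.24 and 9.40 in Elav-GAL4 controls. Within each neuronal pair the genotypes did not overlap, and the ElavC155 difference was -1.003 ± 0.239 (SE, limma adjusted p = 0.136). It was -1.39 without ElavC155-GAL4 replicate 2 (adjusted p = 0.0314) and -0.61 without ElavC155-GAL4 replicate 1 (0.403). In the glial pair it had 8.62 and 8.25 in Repo-ATMi flies, against 8.89 and 8.52 in Repo-GAL4 controls, which overlap. In the ATM8 pair it was dim on all arrays, with means of 5.46 in ATM8 and 5.499 in ATM8/+ flies.

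FBtr0074983 was a bright member with alike differences in both neuronal pairs. It had 10.80 and 10.60 in ElavC155-ATMi flies, against 11.65 and 11.46 in ElavC155-GAL4 controls, a difference of -0.86 ± 0.17 (SE, limma adjusted p = 0.065). It had 11.14, 11.26, 10.53 and 10.88 in Elav-ATMi flies, against 12.01, 11.62, 11.51 and 11.83 in Elav-GAL4 controls, a difference of -0.79. All 6 neuronal ATMi arrays thus lay below all 6 neuronal control arrays. In the glial pair the difference was -0.20, with 10.79 and 10.66 in Repo-ATMi flies, against 11.00 and 10.85 in Repo-GAL4 controls, which do not overlap either. In the ATM8 pair it was far dimmer, with means of 6.82 in ATM8 and 7.32 in ATM8/+ flies, and its difference of -0.498 was the member value nearest to that bound.

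The brightest member was FBtr0080125. Its levels were 13.26, 13.41, 13.53 and 13.52 in Elav-ATMi flies, against 13.81, 14.32, 14.14 and 14.07 in Elav-GAL4 controls. In ElavC155-ATMi flies they were 13.52 and 13.36, against 13.95 and 14.01 in ElavC155-GAL4 controls. The 2 neuronal drivers gave like levels in both genotypes, and the ElavC155 difference was -0.54 ± 0.15 (SE, limma adjusted p = 0.211). Its glial difference was -0.30, with 13.19 and 13.44 in Repo-ATMi flies, against 13.75 and 13.48 in Repo-GAL4 controls, which do not overlap either.

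The ElavC155 difference was above 0 for 13 members. It was most positive for FBtr0086760, at 9.56 and 8.85 in ElavC155-ATMi flies, against 9.38 and 8.29 in ElavC155-GAL4 controls. The arrays overlap, and the difference of 0.37 ± 0.33 (SE, limma adjusted p = 0.945) was -0.17 without ElavC155-GAL4 replicate 2. The next was FBtr0073698, at 6.63 and 7.02 in ElavC155-ATMi flies, against 6.41 and 6.79 in ElavC155-GAL4 controls, again with overlap (0.23 ± 0.25, SE, limma adjusted p = 0.967), and from 0.03 to 0.42 with 1 array left out. The single member with both ElavC155-ATMi arrays above both controls was FBtr0080588, which is named because its values were seen. It had 10.20 and 9.99 in ElavC155-ATMi flies, against 9.91 and 9.93 in ElavC155-GAL4 controls (0.17 ± 0.16, SE, limma adjusted p = 0.95), and the difference was 0.06 without ElavC155-ATMi replicate 1 and 0.28 without replicate 2. In the Elav pair it was dimmer in either genotype, with means of 8.65 in Elav-ATMi and 9.17 in Elav-GAL4 flies.

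**Figure D5:**
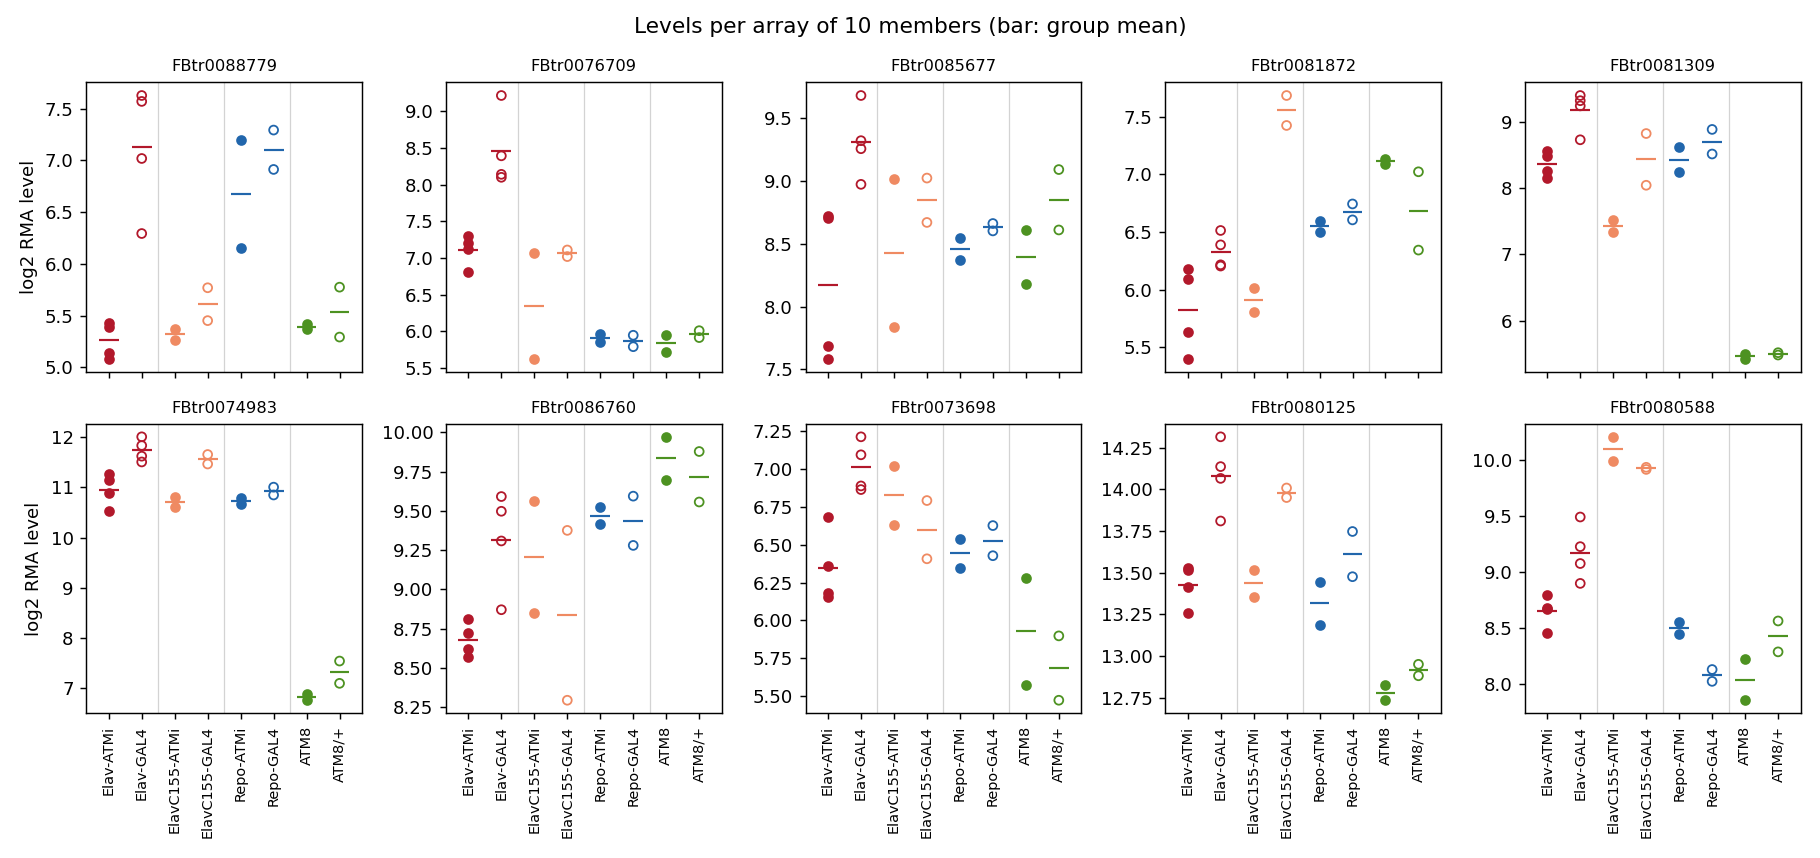
Log2 RMA levels per array of 10 members in the 8 genotypes, with filled points for the ATMi and ATM8 genotypes, open points for their controls and a bar at each group mean; each panel has its own vertical scale. FBtr0081872, FBtr0081309, FBtr0074983 and FBtr0080125 lie lower in both neuronal ATMi genotypes than in their controls. So does FBtr0088779, which is dim in both ElavC155 genotypes.

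Levels in the neuronal pairs are set side by side here as a description. The rule put every Elav-ATMi array of a member below every Elav-GAL4 array, so no test is given. All transcripts were not chosen in this way, so their shares are no like background for these counts. All 6 neuronal ATMi arrays lay below all 6 neuronal GAL4 arrays for 22 members, and for 0.439% of all transcripts. By group means, both ATMi genotypes lay below both GAL4 genotypes for 41 members, and for 8.85% of all transcripts. Elav-GAL4 was the highest of the 4 neuronal genotypes for 46 members, against 27.7% of all transcripts, and ElavC155-GAL4 for 18, against 25.3%. Elav-ATMi was the lowest for 42 members, against 25% of all transcripts, and ElavC155-ATMi for 24, against 23.3%.

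The control levels of the drivers differed for many members, as they did for many of all transcripts. ElavC155-GAL4 minus Elav-GAL4 had a median of -0.19 over members, with the middle 50% between -0.66 and 0.14, and ran from -2.11 to 1.22. Both ElavC155-GAL4 arrays lay below all 4 Elav-GAL4 arrays for 24 members and above them for 10, against 20.4% and 20.7% of all transcripts. The ElavC155-GAL4 mean was no higher than the Elav-ATMi mean for 14 members, against 50.7% of all transcripts. The levels of both Elav genotypes took part in the choice of members, so these shares are no like background either. For the ATMi levels, ElavC155-ATMi minus Elav-ATMi had a median of 0.10, with the middle 50% of members between -0.24 and 0.48, and ran from -1.41 to 1.502. Neither control genotype carried the RNA interference transgene. In the ATMi levels taken alone, a difference between driver lines and a response to the transgene cannot be told apart.

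The 4 control genotypes differed more for members than for all transcripts. The Elav-GAL4, Repo-GAL4 and ATM8/+ levels took part in the choice of members, so this is a description and was not tested. The range of the 4 control means had a median of 1.02 over members and 0.73 over all transcripts, and it was 2 or more for 7 members (3.71% of all transcripts). In these 7 the dim control genotype varied. FBtr0084154, named for its range after the values were seen, averaged 8.92 in Elav-GAL4 controls, 8.40 with ElavC155-GAL4 and 8.71 in ATM8/+ flies but 5.61 in Repo-GAL4 flies. Its Repo-ATMi arrays, at 5.61 and 5.21, and Repo-GAL4 arrays, at 5.75 and 5.47, lay near the low end of the scale. Among all members, 10 had a mean under 6 in Repo-GAL4 (10.9% of all transcripts) and 11 in ATM8/+ (12.6%), so that a minority of members were compared at such levels.

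In the glial and ATM8 pairs the members were held within the bounds by the rule, and their values there are a description. The glial difference had a median of -0.13 over members and -0.02 over all transcripts, and 51 members were below 0, with 52.1% of all transcripts. Both Repo-ATMi arrays lay below both Repo-GAL4 arrays for 25 members (36.2%), against 25.8% of all transcripts. The ATM8 difference had a median of -0.06 over members and 0.004 over all transcripts, and 39 members were below 0, with 49.4% of all transcripts. Both ATM8 arrays lay below both ATM8/+ arrays for 15 members (21.7%), against 20.5% of all transcripts. With 2 arrays a genotype the bounds leave room for error: the median SD between the replicates of members was 0.15 in Repo-ATMi and 0.13 in Repo-GAL4 flies. For the ATM8 bound it was 0.16 in ATM8 and 0.18 in ATM8/+ flies. For comparison, 49 of the 69 members would also lie between -0.5 and 0.5 in the ElavC155 pair, as do 94.3% of all transcripts.

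The 79 transcripts that met the demands on the Elav pair but not the bounds on the glial and ATM8 pairs were also lower with ElavC155. Both ElavC155-ATMi arrays lay below both controls for 48 of them (60.8%), against 20.7% of all transcripts. The median ElavC155 difference of the 79 was -0.49. Of the 79, 12 fell at a limma adjusted p under 0.05, against 0.22% of all transcripts. The Elav differences of the 79 were larger, with a median of -0.84 against -0.60 for the members. Whether the 2 groups of transcripts differ with ElavC155 was not tested.

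Among the members, 2 pairs have consecutive identifiers, and the table does not say whether the transcripts of a pair belong to 1 gene. FBtr0086760 and FBtr0086761 had Elav differences of -0.64 and -0.83 and ElavC155 differences of 0.37 and 0.05. FBtr0100106 and FBtr0100107 had Elav differences of -0.57 and -0.83 and ElavC155 differences of -0.24 and -0.25. No member had values identical to those of another transcript, so none is a plain duplicate of a row, but members may share a gene and are not independent of each other.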

How the data were processed

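The authors deposited log2 RMA levels, 1 column per array. RMA is named per the submitters' processing notes, with no version number. Its background step, its probe filter and the annotation release are stated in none of the sources used here. Their range showed the values to be log2. The members and named transcripts were chosen with earlier results of these data known. The ElavC155 difference was fitted with limma 3.58.1 in R 4.3.3 (lmFit, eBayes, two-sided) on 12 arrays and 6 genotype means (6 residual and 4.35 prior degrees of freedom), with Benjamini-Hochberg adjustment over 15473 transcripts. The 8 Elav arrays were left out because the rule favours a low spread in them. The procedure was tested on simulated data.

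Named transcripts are the 3 members with the most negative Elav difference, the 3 with the most negative and 2 with the most positive ElavC155 difference, up to 2 called with the smallest adjusted p (1 was called), and the brightest in Elav-GAL4. Exceptions are stated beside them. The labels call replicates biological without saying how they were made, so p-values cover only the spread among these samples, which may be technical. Same-numbered ElavC155 samples deviated together (r = 0.51), but with 2 numbers this does not establish a pairing. In the Elav pair, where no test was made, same-numbered samples also deviated together (0.12 to 0.24). The lowest correlation between replicates was 0.976. The number of arrays limits the precision. With 2 against 2 arrays, an exact permutation test could not give a p below 0.333. Sequences are not shown, since no member could be tied to one. Alternatives were other sets of arrays, a replicate block, quantile normalization, array weights, another variance prior, a filter on dim transcripts, other bounds and leaving out each array.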

Additional observations from a re-analysis of the deposited data

Results flagged for a closer look

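FBtr0080588 had differences of opposite sign with the neuronal drivers. Every ElavC155-ATMi array lay above its controls, by 0.17 ± 0.16 on the log2 scale (SE, limma adjusted p = 0.95) and by 0.06 without ElavC155-ATMi replicate 1, while every Elav-ATMi array lay below its controls, as the choice of members required. This difference between drivers was not tested. In 22 groups of 4 Elav arrays (the 10 named members and the median over members), a single array far from the others was sought. The measure was Dixon's ratio, the gap beside the extreme array over the range, and 0 groups passed its cutoff. With 4 values only an extreme array can pass, so a lesser outlier is not excluded.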

How the results depend on the processing

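The median ElavC155 difference of the members kept its sign under all 8 alternatives. It ranged from -0.32 to -0.26 when 1 ElavC155 array was left out and was -0.46 over the 6 members with an Elav difference at or below -1. The count of members with both ElavC155-ATMi arrays below both controls was 46 of 69 after quantile normalization, 24 of 36 without the dimmest 25%, 3 of 6 at an Elav bound of -1 and 19 of 28 with bounds of 0.25 on the glial and ATM8 differences. The main fit called 34 of all transcripts lower with ElavC155 (limma adjusted p under 0.05). The count of members called lower was 0 when only the 4 ElavC155 arrays were fitted, where 3 of all transcripts were called. The count of members was 3 with array weights (61 of all transcripts) and 4 with a replicate block (48 of all transcripts), a pairing the labels do not establish. It was 1 under the other alternatives, leaving out any ElavC155 array included, though not always FBtr0081872: without ElavC155-ATMi replicate 2 it was FBtr0076709, and without ElavC155-GAL4 replicate 2 it was FBtr0081309. FBtr0074983 was called with array weights (adjusted p = 0.0274), without the dimmest 25% (0.0497) and with the replicate block (0.0324). The count called higher was 0 under all 11 alternatives. With all 4 ElavC155 arrays kept, between 21 and 28 of the 69 members were lower at a limma unadjusted p under 0.05. The share of all transcripts in these fits was 2.8% to 4.57%. Without the dimmest 25%, 15 of 36 members were lower, against 3.69% of all transcripts tested. In these fits 0 members were higher.

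The direction of 3 named members, none of them called, turned without 1 ElavC155 array: leaving out each in turn, FBtr0076709 ranged from -1.44 to 0.0059, FBtr0085677 from -1.01 to 0.17 and FBtr0086760 from -0.17 to 0.911. The number of members ranged from 59 to 120 when 1 array was left out, with 120 without Elav-GAL4 replicate 1, 61 of them among the 69. It was 56 after quantile normalization (52 of the 69), 6 at an Elav bound of -1, 28 with bounds of 0.25, 213 from Elav replicates 1 and 2 only and 259 from replicates 3 and 4 only, where fewer arrays make it easier not to overlap. The 2 arrays a genotype and the lack of detection calls limit what can be said of single dim members.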
